A study of Mus musculus with 32 samples.

Results

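The genes described here hand high-energy phosphate between the mitochondria and the contractile machinery of the heart: the creatine kinases Ckm, Ckb, Ckmt2 and Ckmt1, the adenylate kinases Ak1, Ak3 and Ak4, and the adenine nucleotide translocases Slc25a4 and Slc25a5. Every probe set annotated with exactly 1 of these 9 gene symbols was taken, which gave 19 of the 24965 probe sets on 2 Affymetrix array types, 17 of them on the first type. The RNA was total RNA of the cardiac ventricle of mice. The 3 groups below were measured on each array type: 3 arrays of mice in cardiac failure that carried a cardiac specific AT1 transgene, 8 arrays of AT1 transgenic mice with cardiac hypertrophy, and 5 arrays of wild type mice with a normal cardiac phenotype, 32 arrays together. AT1 is not expanded in the labels; it is the common short name of a receptor for angiotensin II. The labels used here give no promoter for the transgene, no strain, age or sex, and no statement that each sample was a different animal, so p-values reflect only the scatter among these arrays, which may be partly technical. The labels also do not say whether same-numbered arrays of the 2 types carried the same RNA, so the 2 types may not be independent.

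In the heart, ATP made in the mitochondria leaves the matrix through the adenine nucleotide translocases, and mitochondrial creatine kinase in the intermembrane space passes its phosphate to creatine. Cytosolic creatine kinases, dimers of the muscle subunit (Ckm), the brain subunit (Ckb) or mixed, turn phosphocreatine back into ATP at the myofibrils and the calcium pump. Adenylate kinases form a parallel route that makes ATP and AMP from ADP, and AMP in turn activates the AMP-activated protein kinase. A lower muscle-type and a higher brain-type share of creatine kinase is a textbook feature of the hypertrophied and failing heart, which makes the pair Ckm and Ckb the natural comparison in such ventricles.

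The upstream promoter sequences of Ckm, Ckb and Ckmt2 are shown because these are the 3 creatine kinase genes with a tested probe set. Each is the stretch of 250 bases before the annotated start in RefSeq (GRCm38.p6), read 5′ to 3′ on the strand of the gene, and capitals mark each match to CANNTG, the E box bound by basic helix-loop-helix factors.
Ckm (chr7:19410844-19411093, plus strand): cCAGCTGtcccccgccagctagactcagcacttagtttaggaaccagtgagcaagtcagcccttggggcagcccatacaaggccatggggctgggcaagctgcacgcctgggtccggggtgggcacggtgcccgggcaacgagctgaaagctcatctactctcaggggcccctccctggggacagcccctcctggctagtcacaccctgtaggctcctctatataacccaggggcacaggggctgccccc
Ckb (chr12:111672339-111672588, minus strand): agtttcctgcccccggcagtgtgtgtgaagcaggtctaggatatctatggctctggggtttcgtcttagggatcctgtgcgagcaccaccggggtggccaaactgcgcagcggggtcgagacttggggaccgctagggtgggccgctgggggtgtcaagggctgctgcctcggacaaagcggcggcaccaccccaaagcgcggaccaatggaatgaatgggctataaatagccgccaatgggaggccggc
Ckmt2 (chr13:91876886-91877135, minus strand): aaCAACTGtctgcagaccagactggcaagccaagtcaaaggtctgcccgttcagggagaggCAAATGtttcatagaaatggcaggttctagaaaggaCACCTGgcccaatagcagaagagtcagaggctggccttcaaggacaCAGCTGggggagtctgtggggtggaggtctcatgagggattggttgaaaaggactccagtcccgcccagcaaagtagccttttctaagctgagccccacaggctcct
All 9 genes had at least 1 promoter window of 250 bases before to 50 after a start, and the search covered both strands for CANNTG, which reads the same on both, and for AGGTCA, a core site of nuclear receptors. Positions count back from the start, with -1 for the base before it, and give the first base of a match. The Ckm window held 1 CANNTG match, at position -249, that of Ckb held none, and that of Ckmt2 held 4, at -248, -189, -153 and -107. Slc25a4 had 1 match and Slc25a5, an X-linked gene, had 3. CANNTG occurred in 72.3% of all 32851 such windows and AGGTCA in 16.3% of them. The windows of Ckm, Ckb, Ckmt2, Slc25a4, Slc25a5 and Ak3 held no AGGTCA, a description of these letters in these windows only.

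Values are linear intensities, 1 per probe set and array, and have no common scale between probe sets. Array medians ranged from 91.8 to 121 on the first type and 69.3 to 80.6 in the second. In the first type hypertrophy replicates 6 and 7 were unlike the rest: their 5′ Gapdh control probe set gave 0.468 and 0.0487 of the 3′ one, against 0.806 to 1.11 in the other 14 arrays. On the second type the arrays of these numbers gave 0.379 and 0.0414, against 0.772 to 1.18 in the others. The 5′ to 3′ ratio of Actb, a second sign of RNA quality, averaged 0.960 ± 0.173 in failure (SD, n = 3), 0.701 ± 0.204 in hypertrophy (n = 8) and 0.623 ± 0.0819 in wild type (n = 5) on the first type, so it moved with the groups. On the second type it averaged 1.09 ± 0.207 in failure, 0.825 ± 0.278 in hypertrophy and 0.747 ± 0.144 in wild type. Of 10 cardiomyocyte markers, 9 were on the first type and all 9 were tested, with summed intensities of 54779 to 55652 in failure, 47979 to 60413 in hypertrophy and 50627 to 58275 in wild type. Of 10 fibroblast markers, 9 were there and tested, and their sum was 5002 to 9450 in failure, 3556 to 7900 in hypertrophy and 4623 to 5661 in wild type. The 4 atrial markers (Myl7, Myl4, Sln and Nppa) were all there and 3 were tested, with Sln below the floor in at least 8 arrays. Their sum was 4093 to 5939.7 in failure, 986 to 4659 in hypertrophy and 1265 to 3391 in wild type. A sum of linear intensities weighs the brightest gene most, so it does not measure the amount of atrial tissue. The part of these genes in the differences below was not tested. In whole ventricle, fewer cells of a type and less RNA per cell cannot be told apart.

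Of the 19 probe sets, 13 from 8 genes were tested, meaning that they reached the median of their own array in at least 3 of 16 arrays. None of these 13 passed an adjusted limma p of 0.05 in failure against wild type, where 0.25% of all 13984 tested probe sets did. None passed in hypertrophy against wild type, where 0.0858% of all did. Between failure and hypertrophy none did either, beside 0.0143% of all. At an unadjusted limma p under 0.05 there were 2 members in failure against wild type, both lower in failure, beside 11.4% of all tested probe sets. There was 1 in hypertrophy against wild type, beside 7.12%, and 0 in failure against hypertrophy, beside 9.36%. The median log2 difference of the members was -0.08 in failure against wild type and -0.13 in hypertrophy against wild type, beside 0.05 and 0.01 over all tested probe sets, and 0.03 in failure against hypertrophy, beside 0.04. Negative differences numbered 9, 12 and 4 of 13 in these comparisons. The share of negative differences over all tested probe sets was not computed. Some of the 13 are probe sets of the same gene, so these counts are no test of a common direction. Over the alternative settings run, called members numbered 0 to 3 in failure against wild type and 0 in both other comparisons. Both comparisons with wild type share the same 5 wild type arrays.

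Ckm encodes the muscle subunit of cytosolic creatine kinase. It had 2 tested probe sets, whose differences from wild type had opposite signs. The probe set 161569_f_at read 102, 76.7 and 120.5 in the failure arrays, 73.8 to 209 with a median of 121 in hypertrophy, and 223, 159.5, 275, 252 and 185 in wild type. Every failure array lay below every wild type array, a pattern that 4.68% of the tested probe sets of this array type showed, and the hypertrophy arrays overlapped both. The log2 difference between failure and wild type was -1.13 ± 0.28 (SE), with a 95% interval of -1.73 to -0.53, a level 0.456 times that of wild type. Its adjusted limma p was 0.130, against an unadjusted p of 0.000933. In hypertrophy against wild type the difference was -0.73 ± 0.22, with an adjusted p of 0.960 and an unadjusted p of 0.00425. This is the one member whose call in failure against wild type turned on the scaling. With each array scaled to its median the difference was -1.23 with an adjusted p of 0.0396, and after quantile normalization it was -1.21 with an adjusted p of 0.0379. With the Actb ratio as a covariate it was -0.99 with an adjusted p of 0.159. The suffix _f_at marks probes that can match several members of a sequence family.

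The other Ckm probe set, 160175_at, read 124, 120.0 and 154 in failure, 99.0 to 169 with a median of 121 in hypertrophy, and 129, 110.4, 111, 106 and 119 in wild type. Failure exceeded wild type by 0.20 ± 0.16 on the log2 scale (95% interval -0.13 to 0.53, limma adjusted p = 0.701), and hypertrophy exceeded it by 0.12 ± 0.12 (adjusted p = 0.976). Neither Ckm probe set was bright: 160175_at reached its array's median in 12 of 16 arrays and 161569_f_at in 11. The ratio of 161569_f_at to 160175_at was 0.639 to 0.818 in failure, 0.589 to 2.11 in hypertrophy and 1.44 to 2.48 in wild type. The 2 probe sets therefore give no common direction for Ckm. Of 9 skeletal muscle markers, 4 were tested, Myh1 and Tnnt3 were below the floor in at least 8 arrays, and the sum was 1655 to 1942 in failure, 1736 to 2014 in hypertrophy and 1748 to 2063 in wild type.

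**Figure D1:**
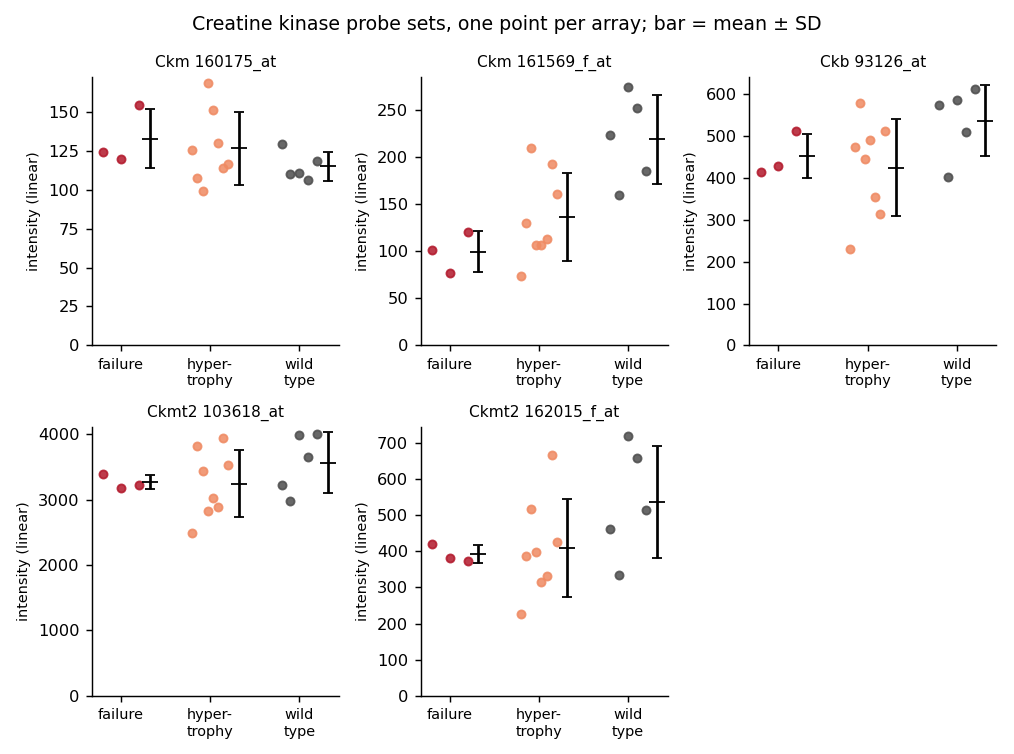
Intensity (linear scale) of the 5 tested creatine kinase probe sets, 1 point per array, for failure (3 arrays), hypertrophy (8) and wild type (5), with the mean and SD beside the points. The failure arrays of Ckm 161569_f_at, at 76.7 to 120.5, lie below the wild type arrays, at 159.5 to 275, while those of Ckm 160175_at do not.

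Ckb, the brain subunit, is the isoform linked to the fetal heart. Its probe set 93126_at read 415, 429.6 and 513 in failure, 231 to 578 with a median of 459 in hypertrophy, and 574, 402, 586, 510.0 and 613 in wild type. The groups overlapped, and no failure or hypertrophy array exceeded the highest wild type array. Mean intensities were 452.5 ± 52.8 in failure (SD, n = 3), 424 ± 115 in hypertrophy (n = 8) and 537 ± 84.4 in wild type (n = 5). The log2 difference from wild type was -0.24 ± 0.24 in failure (95% interval -0.74 to 0.27, limma adjusted p = 0.785) and -0.38 ± 0.19 in hypertrophy (-0.77 to 0.02, adjusted p = 0.960). The upper ends correspond to levels 1.20 and 1.01 times that of wild type. Of 6 neuron and glia markers, 2 were tested on this array type, Snap25 was below the floor in at least 8 arrays, and the sum was 697 to 809 in failure, 617 to 1060 in hypertrophy and 725 to 841 in wild type.

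The log2 difference of Ckb over Ckm within an array shows unequal change of the 2 probe sets and no ratio of abundance. With Ckm 161569_f_at, which had the higher mean over the arrays mainly through wild type, it averaged 2.20 ± 0.25 in failure (SD, n = 3), 1.66 ± 0.45 in hypertrophy (n = 8) and 1.31 ± 0.28 in wild type (n = 5). The failure arrays, at 2.03 to 2.49, lay above the wild type arrays, at 1.01 to 1.73. With 160175_at the order was turned: 1.77 ± 0.06 in failure, 1.71 ± 0.53 in hypertrophy and 2.21 ± 0.22 in wild type. In all 3 failure arrays 161569_f_at read lower than 160175_at. The shift between failure and wild type was 0.90 with 161569_f_at and -0.44 with 160175_at, so the direction of the balance between the cytosolic isoforms depended on the Ckm probe set.

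Ckmt2 is the sarcomeric mitochondrial creatine kinase, the form of heart and skeletal muscle. Its probe set 103618_at read 3391, 3181 and 3229.9 in failure, 2496 to 3948 with a median of 3231 in hypertrophy, and 3218, 2980.1, 3997, 3647 and 4002 in wild type. All failure values lay within the wild type range. The log2 difference from wild type was -0.12 ± 0.15 in failure (limma adjusted p = 0.841) and -0.14 ± 0.12 in hypertrophy (adjusted p = 0.964), with 95% intervals of -0.43 to 0.20 and -0.39 to 0.10. A second probe set, 162015_f_at, averaged 392 ± 24.6 in failure (SD, n = 3), 409 ± 135 in hypertrophy (n = 8) and 537 ± 154 in wild type (n = 5). Its differences from wild type were -0.40 ± 0.28 in failure (adjusted p = 0.666) and -0.41 ± 0.22 in hypertrophy (adjusted p = 0.960), in the same direction as the first. The third, 161876_r_at, stayed below the floor of 39.5 in 16 of 16 arrays and was not tested.

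Ckmt1, the ubiquitous mitochondrial creatine kinase, had no tested probe set. Its probe set 160565_at was below the floor in 16 of 16 arrays, at 22.3 to 35.7 in failure, 6.69 to 26.3 in hypertrophy and 16.7 to 24.6 in wild type. The other, 161495_r_at, lay between 33.8 and 76.7 and never reached its array's median. A balance of Ckmt1 against Ckmt2 was therefore not described.

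Ak1, the main cytosolic adenylate kinase of muscle, was the second member with an unadjusted p under 0.05. Its probe set 96801_at read 687, 850.1 and 1119.8 in failure, 823 to 1376 with a median of 1133 in hypertrophy, and 1062, 986, 1315, 1164 and 1225 in wild type. Failure replicates 1 and 2 lay below all wild type arrays and failure replicate 3 lay among them. The log2 difference between failure and wild type was -0.40 ± 0.19 (95% interval -0.79 to -0.005, limma adjusted p = 0.459, and 0.0475 before adjustment). Failure differed from hypertrophy by -0.33 ± 0.17 (adjusted p = 0.534) and hypertrophy from wild type by -0.07 ± 0.15 (adjusted p = 0.985). Without failure replicate 1 the difference between failure and wild type was -0.23, and without failure replicate 3 it was -0.58, so single failure arrays set its size. With the Actb ratio as a covariate it was -0.23 with an adjusted limma p of 0.604.

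Ak3 and Ak4 are adenylate kinases of the mitochondrial matrix, and Ak3 uses GTP. Ak3 was tested through 164931_r_at of the second type, which reached its array's median in 7 of 16 arrays. It averaged 77.1 ± 9.93 in failure (SD, n = 3), 75.7 ± 8.40 in hypertrophy (n = 8) and 75.7 ± 5.90 in wild type (n = 5). Failure differed from wild type by 0.02 ± 0.12 on the log2 scale (95% interval -0.24 to 0.29) and hypertrophy by -0.004 ± 0.097, with adjusted limma p-values of 0.963 and 0.996. Ak4 99521_at averaged 278 ± 25.5 in failure, 282 ± 48.2 in hypertrophy and 284 ± 15.9 in wild type. The differences from wild type were -0.03 ± 0.15 (95% interval -0.35 to 0.29) and -0.03 ± 0.12 (-0.28 to 0.22), with adjusted p-values of 0.973 and 0.992. The group means of both genes lay closer together than the SD within any group. Ak3 92492_at was below the floor in 16 of 16 arrays, and Ak3 160233_at and Ak4 99959_at reached their array's median in 1 array each.

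Slc25a4 is the adenine nucleotide translocase of heart and skeletal muscle and was measured on both array types. The first type's probe set 93084_at read 6049, 5801 and 6657 in failure, 5275 to 6925 with a median of 5762 in hypertrophy, and 6149.9, 5935, 6683, 6685 and 6594 in wild type. The second type's probe set 164425_f_at read 3507, 3232 and 3727 in failure, 2064 to 4077 with a median of 3479 in hypertrophy, and 3676, 3491, 3807, 4285 and 3256 in wild type. All 3 groups overlapped on both. The log2 difference between failure and wild type was -0.06 ± 0.11 on the first type (95% interval -0.29 to 0.18, limma adjusted p = 0.911) and -0.08 ± 0.18 on the second (-0.45 to 0.29, adjusted p = 0.893). In hypertrophy it was -0.12 ± 0.09 (-0.31 to 0.06, adjusted p = 0.960) and -0.13 ± 0.14 (-0.42 to 0.16, adjusted p = 0.802). The first type's standard errors were the smallest of all members in both comparisons, and its interval spans failure levels of 0.816 to 1.13 times that of wild type.

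**Figure D2:**
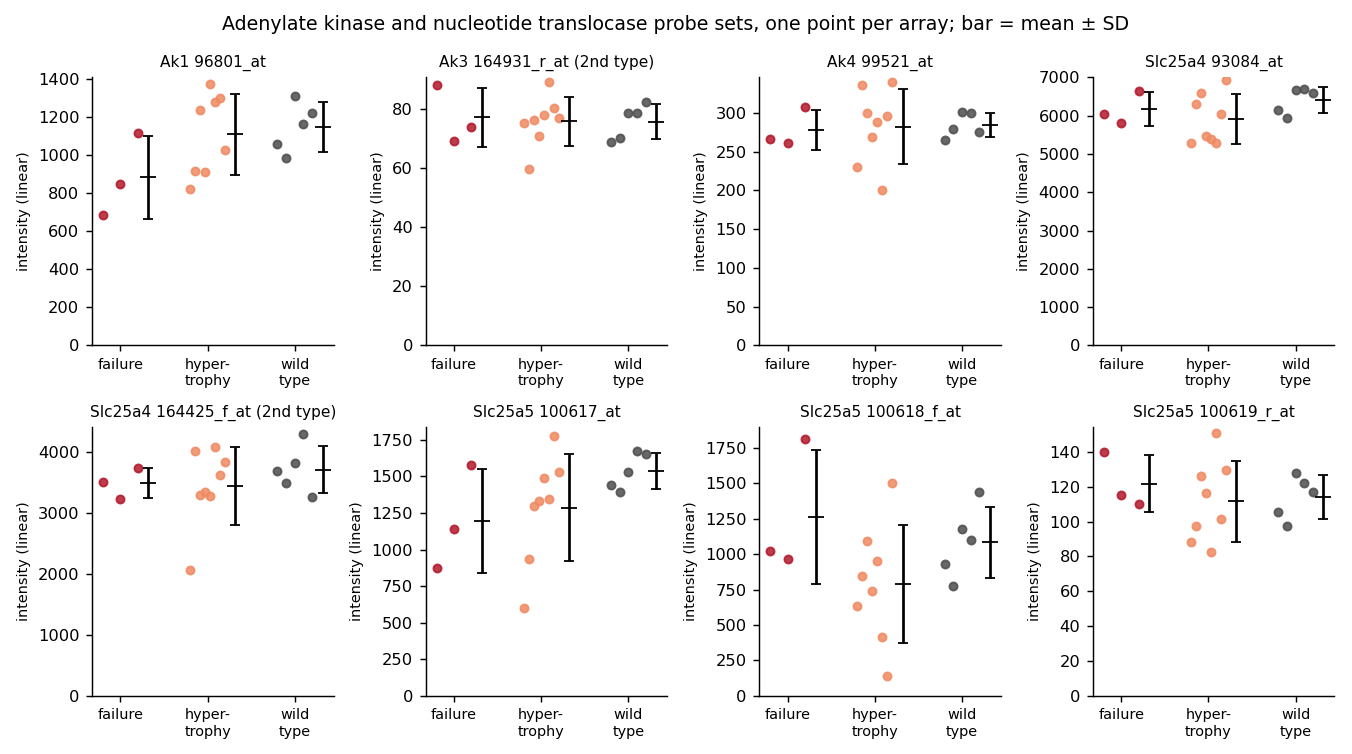
Intensity (linear scale) of the 8 tested adenylate kinase and nucleotide translocase probe sets, 1 point per array, for failure (3 arrays), hypertrophy (8) and wild type (5), with the mean and SD beside the points. The groups overlap in every panel, and Slc25a5 100618_f_at has a hypertrophy point at 140.4, far under its wild type arrays at 776 to 1439.9.

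Slc25a5 is the translocase of proliferating and many non-muscle tissues and is also found in heart. Its 3 probe sets did not tell one story. The first, 100617_at, read 871, 1139 and 1579 in failure, 601 to 1776 with a median of 1338 in hypertrophy, and 1443, 1395, 1529.9, 1671 and 1653 in wild type. Its differences from wild type were -0.40 ± 0.27 in failure (limma adjusted p = 0.649) and -0.32 ± 0.21 in hypertrophy (adjusted p = 0.960). With the Actb ratio as a covariate the failure difference was 0.001. The second, 100618_f_at, read 1020.5, 965 and 1812 in failure, 140.4 to 1503 with a median of 792 in hypertrophy, and 929, 776, 1181, 1097 and 1439.9 in wild type. Failure differed from wild type by 0.19 ± 0.53 (95% interval -0.92 to 1.31, adjusted p = 0.941), the widest standard error of all members, and hypertrophy by -0.69 ± 0.41 (adjusted p = 0.960). The third, 100619_r_at, averaged 122 ± 16.1 in failure (SD, n = 3), 112 ± 23.1 in hypertrophy (n = 8) and 114 ± 12.5 in wild type (n = 5), with adjusted p-values of 0.899 and 0.986 against wild type.

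The first 2 probe sets of Slc25a5 parted most in 2 arrays. The ratio of 100618_f_at to 100617_at was 0.308 in hypertrophy replicate 6 and 0.0790 in hypertrophy replicate 7, against 0.553 to 1.17 in the other 14 arrays. These are the arrays in which the 5′ to 3′ ratio of Gapdh was 0.468 and 0.0487. Without both, 100618_f_at differed between hypertrophy and wild type by -0.20 in place of -0.69, and without replicate 7 alone by -0.37. Whether the one caused the other was not tested. In these arrays the ratio of the 2 Ckm probe sets was 0.869 and 1.68, within the 0.589 to 2.48 of the other 14, and that of the 2 Ckmt2 probe sets was 0.115 and 0.169, within 0.0908 to 0.181. The log2 difference of Slc25a5 over Slc25a4 within an array was -2.41 ± 0.36 in failure, -2.26 ± 0.47 in hypertrophy and -2.06 ± 0.06 in wild type with 100617_at. The shift between failure and wild type was -0.35 with this probe set, 0.25 with 100618_f_at and 0.15 with 100619_r_at, so its direction depended on the probe set.

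**Figure D3:**
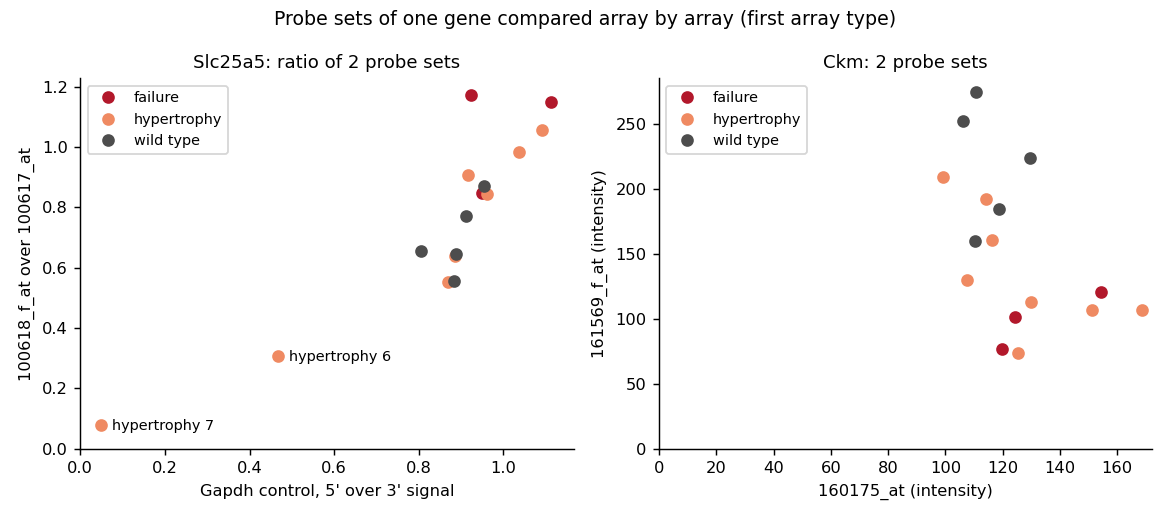
Left, the ratio of Slc25a5 100618_f_at to 100617_at against the 5′ over 3′ signal ratio of the Gapdh control, 1 point per array of the first type; hypertrophy replicates 6 and 7 lie at 0.308 and 0.0790 and the other 14 arrays at 0.553 or above. Right, the intensities of the 2 Ckm probe sets against each other, with failure at 76.7 to 120.5 and wild type at 159.5 to 275 on the vertical axis; on the horizontal axis the groups overlap.

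Standard errors of the log2 difference between failure and wild type ran from 0.11 to 0.53 with a median of 0.18, and those of hypertrophy against wild type from 0.09 to 0.41 with a median of 0.14. Only for Ckm 161569_f_at and Ak1 96801_at did the 95% interval of failure against wild type leave out 0, and only for Ckm 161569_f_at in hypertrophy. In failure against hypertrophy every interval held 0, and Slc25a5 100618_f_at had the largest difference, at 0.88 ± 0.49. It was 0.56 without hypertrophy replicate 7, 0.39 without replicates 6 and 7, and 0.06 with the Actb ratio as a covariate.

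**Figure D4:**
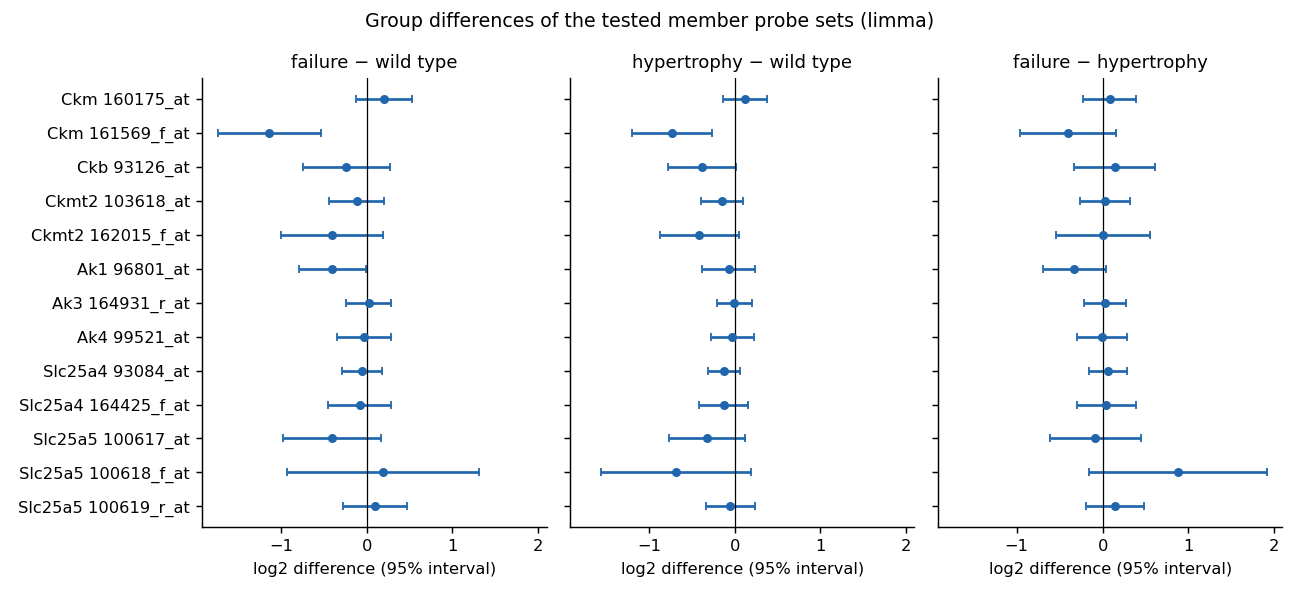
Log2 differences with 95% intervals from limma for the 13 tested member probe sets in failure minus wild type, hypertrophy minus wild type and failure minus hypertrophy. Ckm 161569_f_at, at -1.13 and -0.73, is the one probe set whose interval lies below 0 in both comparisons with wild type.

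The surrounding network was read from a list of 65 symbols for creatine synthesis and uptake, other adenylate kinases, nucleoside diphosphate kinases, AMP and adenosine handling, AMP-activated protein kinase, mitochondrial carriers, ATPases of the myocyte and regulators of mitochondrial genes. Of these, 49 genes were on the arrays, and 36 genes with 63 probe sets were tested. In failure against wild type 2 of the 63 passed, both higher, beside 0.25% of all tested probe sets, and 15 had an unadjusted limma p under 0.05, beside 11.4% of all. Of the 2 that passed, Prkag2 162629_at was tested only because of the failure arrays, in which it was high, so this count rests partly on the filter. In hypertrophy against wild type 0 passed, beside 0.0858% of all, and 6 had an unadjusted limma p under 0.05, beside 7.12%. Between failure and hypertrophy 0 passed, beside 0.0143%, and 7 had an unadjusted limma p under 0.05, beside 9.36%. The median log2 difference of the list was 0.07 in failure against wild type, -0.02 in hypertrophy against wild type and 0.03 between failure and hypertrophy, beside 0.05, 0.01 and 0.04 over all tested probe sets.

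Prkag2, the gamma 2 subunit through which AMP-activated protein kinase senses AMP, was called higher in failure with 1 of its 2 tested probe sets. That probe set, 162629_at of the second type, read 91.6, 103 and 84.1 in failure, 37.9 to 69.2 in hypertrophy, and 55.6, 49.5, 48.2, 48.7 and 54.5 in wild type. The log2 difference was 0.85 ± 0.17 against wild type (limma adjusted p = 0.0362) and 0.75 ± 0.15 against hypertrophy (adjusted p = 0.0791). The probe set reached its array's median in the 3 failure arrays alone, so it was tested only because of the group in which it was high. It had no value under the stricter filter, and with no filter its adjusted p was 0.0430. The call was lost without any 1 of the failure arrays (adjusted p of 0.0557 to 0.212), without any 1 of the wild type arrays (0.0607 to 0.0976) and without hypertrophy replicate 4 or 6 (0.0540 and 0.0524). The gene's other tested probe set, 164532_r_at, differed in the opposite direction: it averaged 324 ± 21.1 in failure (SD, n = 3) and 384 ± 59.5 in wild type (n = 5), a difference of -0.24 ± 0.21 with an adjusted p of 0.701. The 11 tested probe sets listed under AMP-activated protein kinase covered its subunits and Stk11. Only 162629_at passed, beside 0.25% of all tested probe sets. The 11 differences ran from -0.37 to 0.85, 7 positive and 4 negative. Their median was 0.26, beside 0.05 over all tested probe sets.

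Myh7, the slow myosin heavy chain and an ATPase that spends the ATP, was the other called gene. Both its tested probe sets carry the suffix _f_at, so they can match several members of a sequence family. Whether they did was not tested. The first, 161547_f_at, read 4348, 3228 and 3130.5 in failure and 619 to 1437 in wild type, a log2 difference of 1.81 ± 0.23 (limma adjusted p = 0.00374). Without failure replicate 1 the difference was 1.66 with an adjusted p of 0.0547. The second probe set, 98616_f_at, differed by 0.61 ± 0.13 (adjusted p = 0.0752). In hypertrophy 161547_f_at differed from wild type by 0.77 ± 0.18 with an adjusted p of 0.590, and failure differed from hypertrophy by 1.04 ± 0.22 with an adjusted p of 0.128.

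The remaining genes with the smallest p-values did not pass. Nrf1, a transcription factor for respiratory chain genes, had 3 tested probe sets that disagreed in failure against wild type: 114578_at differed by -0.66 ± 0.18 (limma adjusted p = 0.109), 114511_at by -0.24 ± 0.10 (adjusted p = 0.342) and 107363_at by 0.48 ± 0.17 (adjusted p = 0.253). Mef2c, a myocyte transcription factor, differed by 0.66 ± 0.18 in failure (adjusted p = 0.109) and 0.49 ± 0.14 in hypertrophy (adjusted p = 0.253) with 109748_at, while its other 4 tested probe sets had adjusted p-values of 0.731 or more in failure. In hypertrophy these 4 differed by -0.42, -0.30, -0.02 and 0.01, with adjusted p-values of 0.735 or more. In hypertrophy against wild type Ada, adenosine deaminase, differed by 0.38 ± 0.14 (adjusted p = 0.960) and Prkag3, the gamma 3 subunit of AMP-activated protein kinase, by 0.24 ± 0.10 (adjusted p = 0.475). Prkaa2, its alpha 2 catalytic subunit, differed by 0.52 ± 0.20 between failure and hypertrophy with 107865_at (adjusted p = 0.476). With 114982_at it differed by 0.15 ± 0.21 (limma adjusted p = 0.868) and with 164640_r_at by -0.05 ± 0.24 (adjusted p = 0.964).

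No probe set of creatine synthesis and uptake passed in failure against wild type, with 6 tested and differences from -0.31 to 0.43. The same held for 1 other adenylate kinase probe set at 0.27, for 4 of nucleoside diphosphate kinases, from -0.09 to 0.25, and for 12 of AMP and adenosine handling, from -0.94 to 0.42. It also held for 7 of mitochondrial carriers, from -0.48 to 0.29, and for 17 of regulators of mitochondrial genes, from -0.66 to 0.66.

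**Figure D5:**
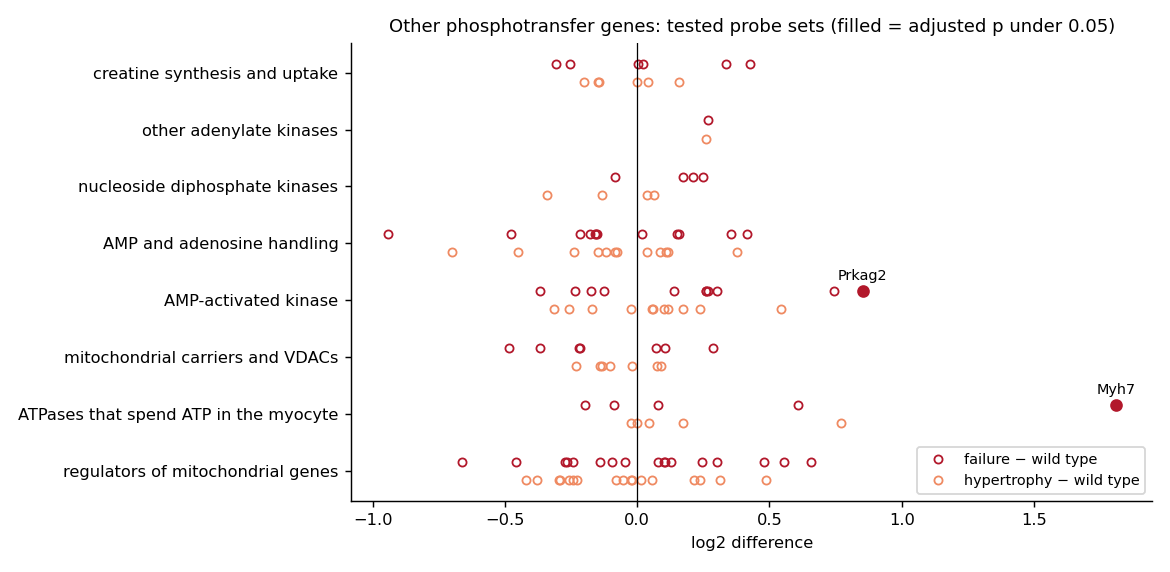
Log2 difference of each tested probe set of the other phosphotransfer genes, by group of genes, for failure minus wild type (upper row of each pair, dark red) and hypertrophy minus wild type (lower row, orange); filled points passed an adjusted p of 0.05. Prkag2 at 0.85 and Myh7 at 1.81 are the 2 filled points, and the Prkag2 probe set was tested only because of the failure arrays, in which it was high.

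For the brightest probe set of 4 members, the 5 genes with the highest Pearson correlation of log2 intensity over the 16 arrays of the first type were listed as a description. These arrays share their groups and their scaling, so no p-value was given. For Ckm 161569_f_at they were Lpl, Hccs, Bmp7, Ppara and Cops9, with r from 0.88 to 0.91. For Ckb they were Fastk, Gstm2, Ube2d3, Aldoa and Cryge, with r from 0.86 to 0.92. For Ckmt2 103618_at they were Eif2s2, Itga5, Rpl7a, Hspa9 and Rps10, with r from 0.88 to 0.90, and for Slc25a4 93084_at they were Atp5c1, Cryge, Coa3, Irf1 and Crygd, with r from 0.87 to 0.90. Leaving out the 2 arrays farthest from the member's median, of which hypertrophy replicate 1 was one each time, left r between 0.84 and 0.89 for Ckm, 0.74 and 0.86 for Ckb, 0.83 and 0.91 for Ckmt2, and 0.81 and 0.88 for Slc25a4.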

How the data were processed

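The deposited intensities are linear, 1 per probe set; their scaling and summary are not given in the sources used here. The coefficient of variation of array medians was 6.60% (first type) and 4.65% (second), and that of means trimmed by 2% at each end 4.82% and 3.31%. Further scaling was to be applied only where both measures reached 5%. None was applied, although the medians of the first type exceeded that limit. A floor at the 20th percentile (39.5 and 27.5) was set before log2, so changes of dim probe sets are understated. Probe sets reaching their array's median in at least 3 arrays were tested, 6980 of 12488 and 7004 of 12477. Each type was fitted with limma 3.58.1 in R 4.3.3 over all 16 arrays, with Benjamini-Hochberg adjustment per type and comparison, a threshold of 0.05 and two-sided tests; the fit was tested on simulated data. The number of arrays limits the precision.

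Names come from the platform annotation, updated to GRCm38.p6 symbols. Named were all members, the called genes and the 4 smallest p-values per comparison of the wider list, and the 5 best correlated genes of 4 members. A comparison of the protein sequences was planned and is not analysed here. The members and lists were chosen with earlier results of these data known. Alternatives were other scalings, floors, filters, moderation, array weights, only the groups compared, a replicate block, RNA quality covariates, leaving out arrays and, chosen after seeing the data, Xist signal as a covariate. Replicate numbers were not used to pair samples across groups in the reported fit. Figures were drawn with matplotlib 3.10.9.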

Additional observations from a re-analysis of the deposited data

Results flagged for a closer look

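One result stood apart from its own group. In the second array type's Slc25a4 probe set 164425_f_at, hypertrophy replicate 1 read 2064, and the other 7 hypertrophy arrays lay at 3272 or above, a gap larger than Dixon's 95% limit for 8 samples. It was the 1 flag among 26 groups of member probe sets examined, and chance alone flags about 1 group in 20. Without that array the difference between failure and hypertrophy was -0.06 in place of 0.05 on the log2 scale, and neither value passed the threshold. The arrays named hypertrophy replicate 1 also had the lowest median of each type, at 91.8 and 69.3. They gave the lowest value of all arrays in 6 of the 13 tested member probe sets, and in 4 after median scaling.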

How the results depend on the processing

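The count of called members was 0 between hypertrophy and wild type and between failure and hypertrophy under every alternative run. In failure against wild type it was 0 except with median scaling (1), quantile normalization (1), only the groups compared (1) and array weights (3). Ckm 161569_f_at was called each time, with adjusted p-values of 0.0396, 0.0379, 0.0257 and 0.00034. With array weights Ak1 (-0.48, adjusted p = 0.0232) and Slc25a5 100617_at (-0.48, adjusted p = 0.0368) were called too, where 1002 of all 6980 probe sets of the first type were. Leaving out each array in turn left 0 called, and Ckm 161569_f_at between -1.28 and -0.96 with adjusted p-values of 0.052 to 0.635; the cause of these changes was not tested.

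In the wider list, calls in failure against wild type numbered 2 as reported, 3 with median scaling, quantile normalization, no filter or no hypertrophy replicates 6 and 7, 1 with the stricter filter, trended robust moderation, the replicate block or the Actb covariate, 5 with only the groups compared, 10 with array weights and 0 to 3 leaving out 1 array. There was 1 in hypertrophy against wild type without the filter, and between failure and hypertrophy 1 with the higher floor and 3 with array weights. Over all tested probe sets, array weights called 1002 of 6980 (first type) and 428 of 7004 (second type) in failure against wild type. In failure against hypertrophy they called 274 and 30. With only the groups compared, 122 and 193 were called in failure against wild type. Ckm 160175_at gave isoform differences of -0.44 (failure over wild type), -0.50 (hypertrophy over wild type) and 0.058 (failure over hypertrophy); Slc25a5 100618_f_at gave 0.25 in failure against wild type and 0.81 against hypertrophy, and 100619_r_at 0.15 against wild type.

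The replicate block left 0 members called, Ckm 161569_f_at at -1.18 (adjusted p = 0.154), and moved Prkag2 162629_at out of the calls (adjusted p = 0.132). Deviations of same-numbered arrays correlated by -0.19 to 0.36 between groups. Arrays of unlike number were not compared in this way, so the range cannot decide whether the numbers pair samples. The reported fit took the numbers to name arrays only. Prkag2 was also lost with trended robust moderation (0.0587) and the Actb covariate (0.0576).

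Directions also turned for the member differences below, none of which passed as reported or after turning. In failure against hypertrophy, median scaling gave Ckmt2 103618_at -0.065, Ckmt2 162015_f_at -0.083, Ckm 160175_at -0.0081, Ak3 164931_r_at -0.015 and Slc25a4 93084_at -0.024. Quantile normalization gave them -0.072, -0.014, -0.015, -0.015 and -0.051, and Slc25a4 164425_f_at -0.0024. Array weights gave Ckm 160175_at -0.081, Slc25a4 164425_f_at -0.027 and Ckb -0.067. Slc25a5 100617_at was 0.278 with the replicate block, 0.027 with the Gapdh covariate, 0.242 with the Actb covariate and 0.026 without hypertrophy replicates 6 and 7, and Ak4 99521_at was 0.0045 with the Xist term. In failure against wild type, Ak3 164931_r_at was -0.068 and -0.067 with the 2 scalings, Slc25a5 100617_at 0.0014 (-0.40 as reported) and Slc25a4 164425_f_at 0.083 with the Actb covariate, and Slc25a5 100618_f_at -0.062 with array weights and -0.826 with the Actb covariate (0.19 as reported). Ak4 99521_at in hypertrophy against wild type was 0.036 without replicates 6 and 7.

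Leaving out 1 array turned 14 differences at least once. Their ranges in failure against hypertrophy were -0.075 to 0.101 for Ak3 164931_r_at, -0.079 to 0.040 for Ak4 99521_at, -0.032 to 0.151 for Ckm 160175_at, -0.027 to 0.067 for Ckmt2 103618_at, -0.105 to 0.117 for Ckmt2 162015_f_at, -0.056 to 0.099 for Slc25a4 164425_f_at and -0.305 to 0.124 for Slc25a5 100617_at. In failure against wild type they were -0.079 to 0.098 for Ak3, -0.107 to 0.012 for Ak4, -0.097 to 0.358 for Slc25a5 100618_f_at and -0.0098 to 0.165 for 100619_r_at. In hypertrophy against wild type they were -0.039 to 0.044 for Ak3, -0.069 to 0.039 for Ak4 and -0.116 to 0.0078 for Slc25a5 100619_r_at.

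Over all probe sets, calls in failure against wild type were 10 (first type) and 25 (second type). They were 33 and 40 with median scaling, 3 and 6 with the replicate block, 42 and 81 with the Actb covariate, 122 and 193 with only the groups compared, and 0 to 51 and 4 to 79 leaving out 1 array. With median scaling 15 of the 33 were higher, against 9 of 10 as deposited.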

Other observations

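On the first array type, the signal of Xist, transcribed from the inactive X, was above that of the Y-linked Eif2s3y in failure replicates 1 and 2, hypertrophy replicates 1 to 4 and wild type replicates 1 and 2. Ak1 96801_at read 687 and 850.1 in the failure arrays with Xist above Eif2s3y and 1119.8 in the other one. It read 823 to 1238 against 1028 to 1376 in the hypertrophy arrays, and 986 to 1062 against 1164 to 1315 in the wild type arrays. Slc25a5 100617_at, a probe set of an X-linked gene, read 871 and 1139 against 1579 in failure, 601 to 1332 against 1343 to 1776 in hypertrophy, and 1395 to 1443 against 1529.9 to 1671 in wild type. In a limma fit with this split as a term, chosen after seeing the data, Ak1 differed by -0.37 ± 0.10 (SE; unadjusted p = 0.00158, adjusted p = 0.346) and Slc25a5 100617_at by -0.49 ± 0.15 (unadjusted p = 0.00424, adjusted p = 0.486). The differences of all 11 member probe sets tested on this type were negative, beside 61.3% of all tested probe sets. Some of the 11 are probe sets of the same gene. Over the 13 tested members of both types, failure replicate 2 gave its group's lowest value in 8, hypertrophy replicate 1 in 7 and wild type replicate 2 in 9. These arrays all had Xist above Eif2s3y, so the split and low readings of these arrays cannot be told apart. Of the 6980 tested, 1 passed the adjusted threshold and 8.05% had an unadjusted p under 0.05. With this split as a covariate, Slc25a5 100617_at differed between failure and wild type by -0.27, in place of -0.40 without it.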
